A study of Homo sapiens with 24 samples.

Results

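The response of MOLM-14 cells to SAHA was set against that of MV4-11 cells, gene by gene. For each probe set, the log2 change with SAHA over DMSO in MV4-11 was subtracted from the same change in MOLM-14, and this value is called the response difference here. It used the 12 SAHA and DMSO arrays of the 24 arrays in the series, and 54613 of 54675 probe sets, since 62 control probe sets were left out. A positive response difference means that MOLM-14 rose more, or fell less, than MV4-11.

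The groups were MOLM-14 with SAHA, MOLM-14 with DMSO, MV4-11 with SAHA and MV4-11 with DMSO, with 3 arrays each, named biological replicates in the labels. SAHA was given at 6 µM for 24 hours, and DMSO, the solvent, served as control for the same time. The other 12 arrays held ABT-869, an inhibitor of FLT3, at 3 nM and its combination with SAHA, whose doses are not restated in the methods. Both are established lines of acute monocytic leukemia, grown in RPMI1640 with fetal bovine serum, and both carry an internal tandem duplication of FLT3, a receptor tyrosine kinase. The paper describes a wild-type FLT3 allele beside the mutant one in MOLM-14, and the mutant allele alone in MV4-11. Each line is a single model, so the allele cannot be told apart from any other difference between the lines.

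SAHA (vorinostat) blocks histone deacetylases, enzymes that remove acetyl groups from histones and other proteins, and such inhibitors raise some genes and lower others in most cells. Several programs that cells switch with growth and stress were followed. ATF4 is a transcription factor that is made when amino acids run short and turns on genes that import, synthesize and charge amino acids. E2F factors turn on the genes of DNA replication as a cell enters S phase, and metallothioneins are small proteins that bind zinc and copper.

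All 9 measured myeloid markers, among them CEBPA, LYZ and FLT3, had a mean signal over 500 in every group. The summed signals of 5 T cell markers lay between 217.3 and 357.4, and those of 5 epithelial and fibroblast markers between 322.9 and 586.6. For 4 B cell markers the sum was 740.9 to 1128.7, with PAX5 the highest at up to 662.2. For 3 erythroid markers it was 134.8 in MOLM-14 with SAHA, 250.7 in MOLM-14 with DMSO, 249.5 in MV4-11 with SAHA and 296.9 in MV4-11 with DMSO. Of the 17 markers of T, B, erythroid, epithelial and fibroblast cells, 0 had a response difference that passed in limma on its brightest probe set, and 1 (HBB) had an unadjusted p under 0.05. Over all their probe sets, 1 erythroid probe set passed, with a negative value. Every array had a trimmed mean signal of 500.1, but the median signal was 61.2 to 65.1 on the MOLM-14 SAHA arrays, 69.2 to 79.3 on the MOLM-14 DMSO arrays, 80.4 to 87.8 on the MV4-11 SAHA arrays and 89.1 to 91.8 on the MV4-11 DMSO arrays. As 1 alternative, arrays were centred on the median of their brighter probe sets, those above the overall median signal. This need not close the gap over all probe sets. It moved the median response difference from −0.0532 to −0.0119 among the brighter probe sets and from 0 to 0.0413 over all. With it 1274 probe sets were called, of which 1240 were among the 1666 calls described next.

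The lines responded differently at 1666 probe sets, or 3.05% of those tested (limma, Benjamini-Hochberg adjusted p under 0.05 over all probe sets, 16 residual degrees of freedom). The response difference was positive at 796 (1.46%) and negative at 870 (1.59%), and 401 (0.734%) differed by at least 2-fold. With arrays centred on the medians of their brighter probe sets the split turned, with 732 positive and 542 negative. Single values ran between −3.55 and 3.42, with a median standard error of 0.24 among probe sets above the median signal. Where each gene was represented by its brightest probe set, 5.22% of 19775 genes passed (2.47% higher, 2.75% lower). Of the 11946 genes above the median signal, 8.45% passed (3.98% higher, 4.48% lower). These shares are the background for every gene list below. The count was 1002 without MOLM-14 SAHA replicate 2 and 1100 without MOLM-14 DMSO replicate 2, and it was 671 with a floor on the signal of 1 instead of 32. An unadjusted p under 0.05 was found for 6980 probe sets (12.8%).

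Within the lines, SAHA changed 5868 probe sets in MOLM-14 (10.7%, with 5.55% higher and 5.19% lower) and 5166 in MV4-11 (9.46%, with 5.18% higher and 4.28% lower). Of the genes above the median signal, 27.4% changed in MOLM-14 (14.6% higher, 12.8% lower) and 23.1% in MV4-11 (13.5% higher, 9.59% lower). With centred arrays, 2900 probe sets rose and 2515 fell in MOLM-14, and 2289 rose and 2461 fell in MV4-11, so the excess of rises in MV4-11 turned. At most of the 1666 probe sets the SAHA change itself passed in a single line. It passed in MOLM-14 alone at 754 probe sets, of which 346 rose and 408 fell. The change passed in MV4-11 alone at 581, of which 292 rose and 289 fell. Both lines moved the same way to a different extent at 124 probe sets, of which 57 rose and 67 fell, and neither change passed at 48. Opposite changes, each past the test in its own line, were found at 159 probe sets (0.291% of all), of which 85 rose in MOLM-14 and fell in MV4-11. The count of opposite changes was 102 without MOLM-14 DMSO replicate 2, 103 without MOLM-14 SAHA replicate 2 and 99 without MV4-11 SAHA replicate 2, and 47 with a floor of 1.

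**Figure D1:**
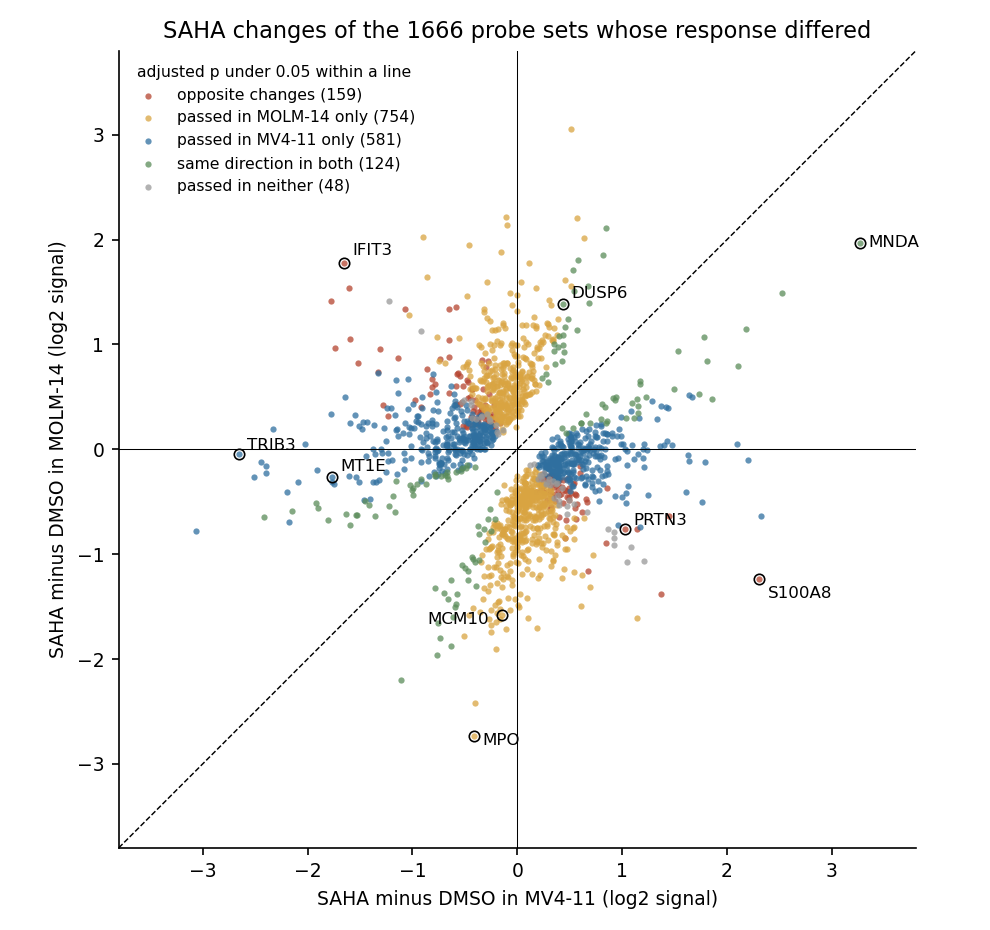
Change with SAHA over DMSO in MOLM-14 (vertical axis, log2 signal) against the same change in MV4-11 (horizontal axis, log2 signal) for the 1666 probe sets whose response differed, 1 point each, colored by the line in which the change passed. At most points the change passed in a single line, which does not show that the other line did not move. IFIT3 and S100A8 lie far out in the quadrants of opposite change. Points on the dashed line would have changed equally.

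The genes of the ATF4 program fell with SAHA in MV4-11 and fell less, or did not pass the test, in MOLM-14. Of 37 such genes, 35 fell in MV4-11 (median −0.85 on the log2 scale), while 15 fell and 2 rose in MOLM-14 (median −0.20). The response difference was positive at 36 of 37 genes and passed at 23 of them, or 62.2%, with no call in the other direction and a median of 0.79 against 0 over all genes. Members named here and in the lists below beyond the largest 2 in each direction were chosen after their values were seen.

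TRIB3, a pseudokinase that restrains ATF4 activity, had the largest value of the list. Its signal was 2389, 2492 and 2256 in MOLM-14 with SAHA, 3084, 2859 and 2627 in MOLM-14 with DMSO, 1745, 1793 and 1808 in MV4-11 with SAHA, and 10385, 9692 and 10382 in MV4-11 with DMSO. The MV4-11 DMSO arrays stood far above the other 9, and the groups did not overlap in either line. The change was −0.26 in MOLM-14 (adjusted p = 0.097) and −2.51 in MV4-11 (adjusted p = 5.38e-11), a response difference of 2.25 (SE 0.13, adjusted p = 2.74e-07 from limma). A second TRIB3 probe set gave 2.61 (SE 0.18, adjusted p = 7.2e-07).

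DDIT3 encodes CHOP, a transcription factor of prolonged stress. It measured 487, 510.4 and 409 in MOLM-14 with SAHA and 520.3, 600.5 and 618 in MOLM-14 with DMSO, against 659.6, 589.9 and 712 in MV4-11 with SAHA and 2772, 2584 and 2987 in MV4-11 with DMSO. Again the MV4-11 DMSO arrays alone were high, and the response difference was 1.78 (SE 0.24, adjusted p = 0.000425). CEBPB, a factor of stress and of monocyte genes, averaged 1638 ± 85.2 and 1444 ± 193 in MOLM-14 with SAHA and with DMSO, and 1650.1 ± 81.7 and 4598 ± 172 in MV4-11 with SAHA and with DMSO (SD, n = 3). Its response difference was 1.67 (adjusted p = 8.19e-07). Among the other regulators, ATF5 differed by 1.78, ATF3 by 1.43, SESN2 by 0.76 and CEBPG by 0.74. The transcript of ATF4 itself, which is controlled in large part through its translation, fell in MV4-11 (−0.42) and had a response difference of 0.31 that did not pass (adjusted p = 0.11).

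Enzymes and carriers of amino acids followed the same order. Of 10 enzymes, 7 passed, led by asparagine synthetase (ASNS, 1.71, adjusted p = 2.74e-07), cystathionine gamma-lyase (CTH, 1.34) and the mitochondrial enzyme PCK2 (1.04), and the serine synthesis genes PSAT1 and PHGDH differed by 0.91 and 0.74. ASNS averaged a signal of 1619 in MOLM-14 with SAHA and 1856 in MOLM-14 with DMSO, against 1440 in MV4-11 with SAHA and 5383 in MV4-11 with DMSO. Of 7 transporters, 4 passed, with SLC7A5 and SLC3A2, the chains of a carrier of large neutral amino acids, at 1.56 and 0.90, while SLC1A5 and SLC7A1 (−0.11 and 0.18) did not. Of 8 tRNA synthetases, 5 passed. WARS1 and SARS1, which charge tryptophan and serine, rose in MOLM-14 (0.67 and 0.53) and fell in MV4-11 (−0.82 and −0.65).

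In several promoters of this list the 8 letters TGATGNAA, with N any base, were found on either strand. This motif is known as CARE, a site type that ATF4 binds together with a C/EBP partner. The promoter windows, 250 bases before to 50 bases after the start in RefSeq (GRCh38.p14), were at hand for 31 of the 37 genes. The motif lay in 8 of these 31, in 4 of 21 called genes and in 4 of 10 that were not, against 3.67% of 27305 promoters of all genes. The following windows show it in genes of 3 of the 4 roles whose response differed, a regulator, an enzyme and a tRNA synthetase, with the match in capitals.
ATF3: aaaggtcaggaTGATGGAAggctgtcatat
ASNS: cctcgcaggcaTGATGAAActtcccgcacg
AARS1: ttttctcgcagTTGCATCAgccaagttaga
They stand at chr1:212565205-212565234 on the + strand, chr7:97872458-97872487 on the − strand and chr16:70289675-70289704 on the − strand, and AARS1 carries the reverse complement of the motif. A match is a description of the letters and not evidence of binding.

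All 7 measured metallothioneins had a positive response difference that passed, with a median of 1.35. All 7 fell in MV4-11 (median −1.61) and 2 fell in MOLM-14 (median −0.26). MT1E measured 3698, 3729 and 3808 in MOLM-14 with SAHA, 4721, 5051 and 4414 in MOLM-14 with DMSO, 4459, 4818 and 6491 in MV4-11 with SAHA, and 17399, 17108 and 17637 in MV4-11 with DMSO. As with TRIB3, the MV4-11 DMSO arrays were the high ones, and the groups did not overlap in either line. The response difference of MT1E was 1.41 (SE 0.17, adjusted p = 0.00024) and that of MT1F 1.38 (SE 0.14, adjusted p = 3.73e-05). MT2A averaged 5851 in MOLM-14 with SAHA and 6972 in MOLM-14 with DMSO, against 7959 in MV4-11 with SAHA and 23936 in MV4-11 with DMSO. MT1M was near the floor, with a mean of 96.2 in MV4-11 with DMSO and under 32 in the other groups. The genes of this family are nearly identical, so a probe set may read several of them, and the 7 values are not 7 independent measurements.

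Metallothionein genes are switched by the metal-sensing factor MTF1 through metal response elements. The core of this element, TGCACNC or TGCGCNC on either strand, was present in the promoters of the 3 members with a window, and also in 29.3% of all 27305 promoters. These include MT2A and MT1X, whose response differences were 1.35 and 1.27. A copy near the start of each of these genes is shown, with the core in capitals.
MT2A: ggcggggctttTGCACTCgtcccggctctt
MT1X: ggcggggcctcTGCGCCCggccctcttccc
These windows are chr16:56608519-56608548 and chr16:56682406-56682435, both on the + strand.

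The genes of both lists also differed in level between the lines with DMSO, on the same DMSO arrays that enter the response difference. With DMSO, 34 of 37 ATF4 genes were lower in MOLM-14 than in MV4-11 (median −0.69), where 13.6% of all probe sets and 31.4% of the brighter genes (17.5% higher, 14% lower) differed between the lines. With SAHA, 6 were higher and 4 lower in MOLM-14 (median 0.04), where 8.18% of all probe sets and 18.1% of the brighter genes (10.2% higher, 7.94% lower) differed. For the metallothioneins, 7 of 7 were lower in MOLM-14 with DMSO (median −1.64) and 4 of 7 with SAHA (median −0.43). The genes of DNA replication had the other order, with 29 of 50 higher and 1 lower in MOLM-14 with DMSO (median 0.49), and 1 higher and 12 lower with SAHA (median −0.21). These medians share arrays with the response difference, so a high DMSO level in one line enters both.

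**Figure D2:**
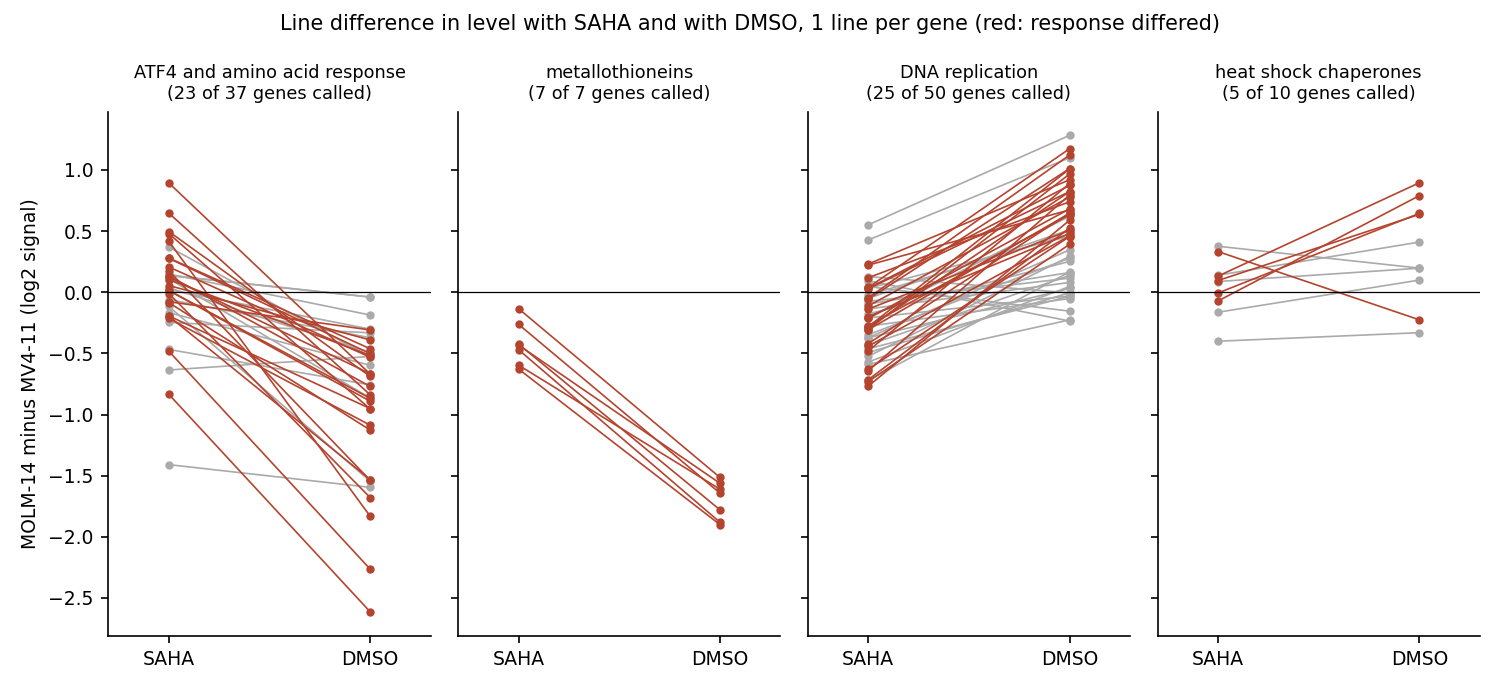
MOLM-14 minus MV4-11 in log2 signal (vertical axis) with SAHA and with DMSO, 1 line per gene, for 4 gene lists, with genes whose response differed in red. In the ATF4 and metallothionein panels the genes lie lower in MOLM-14 with DMSO and nearer to 0 with SAHA (medians 0.04 against −0.69, and −0.43 against −1.64), and in the DNA replication panel they lie higher with DMSO (median 0.49) and around or below 0 with SAHA (median −0.21).

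DNA replication genes fell with SAHA in MOLM-14 and mostly did not pass in MV4-11. Of 50 genes, 39 fell and 1 rose in MOLM-14 (median −0.88), and 5 fell and 4 rose in MV4-11 (median −0.12). The response difference was negative at 47 and passed at 25, with no call in the other direction (median −0.70). RNA came from whole cultures, so a smaller number of cells in S phase and less of these transcripts per cell cannot be told apart.

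Among 21 genes of origin licensing and the replicative helicase, 12 passed. MCM10, which helps to activate the helicase, measured 664, 431 and 428 in MOLM-14 with SAHA and 1583, 1528 and 1358 in MOLM-14 with DMSO, against 811, 699 and 820 in MV4-11 with SAHA and 917, 828 and 828 in MV4-11 with DMSO. The MOLM-14 groups lay far apart, while the gap in MV4-11 was small, and the response difference was −1.44 (SE 0.21, adjusted p = 0.000843). Of the helicase subunits MCM2 to MCM7, which form a ring around DNA, all 6 passed, between −1.36 for MCM4 and −0.68 for MCM6. The loading factor CDC6 (−1.27) and the GINS subunits GINS1, GINS3 and GINS2 (−1.29, −1.17 and −1.07) passed too. The origin recognition subunits ORC1 to ORC6 had values between −0.72 and 0.33 that did not pass, 3 of them at an unadjusted p under 0.05, and ORC1 and the loading factor CDT1 fell in both lines.

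Of 24 polymerase and fork genes, 13 passed. The nuclease DNA2 measured 465, 358 and 327 in MOLM-14 with SAHA and 1120.2, 1118 and 1121 in MOLM-14 with DMSO, against 583, 501 and 505 in MV4-11 with SAHA and 538, 671 and 613 in MV4-11 with DMSO. The groups overlapped in MV4-11 and not in MOLM-14, and the response difference was −1.37 (SE 0.23, adjusted p = 0.00294). Polymerase subunits POLA1, POLE, POLE2 and POLA2 differed by −1.13, −1.12, −1.11 and −1.07, and the sliding clamp PCNA by −0.95 (adjusted p = 0.00408). RPA1, which coats single-stranded DNA, passed through a rise in MV4-11 (0.57) at a MOLM-14 change of −0.12. The 5 genes of nucleotide supply, such as RRM2 and TYMS, fell in MOLM-14, and their response differences of −0.67 to −0.43 did not pass, although all 5 had an unadjusted p under 0.05.

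The letters of an E2F site, TTTCGCGC, TTTGGCGC, TTTCCCGC or TTTGCCGC on either strand, were found in 19 of 43 replication promoters with a window, against 3.33% of all. They lay in 14 of 20 called genes and in 5 of 23 that were not called, a description with no test. Windows of 4 called genes, the helicase subunits MCM3 and MCM6, the polymerase subunit POLA2 and PCNA, are shown with the site in capitals to let the variants be compared.
MCM3: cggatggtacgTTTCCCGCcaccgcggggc
MCM6: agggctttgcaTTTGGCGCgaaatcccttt
POLA2: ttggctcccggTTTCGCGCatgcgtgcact
PCNA: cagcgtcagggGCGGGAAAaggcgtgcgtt
They come from chr6:52284898-52284927 (−), chr2:135876577-135876606 (−), chr11:65261898-65261927 (+) and chr20:5126663-5126692 (−), and PCNA carries the reverse complement of TTTCCCGC.

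Of 14 cyclins and factors that drive entry into S phase, 9 fell in MOLM-14, and 6 response differences passed, all negative. For 7 inhibitors of cyclin-dependent kinases the values lay between −0.02 and 0.83 and did not pass, with 1 at an unadjusted p under 0.05 (CDKN2D). CCNE2, the cyclin E2 gene, measured 1096, 875 and 872 in MOLM-14 with SAHA and 2247, 2177 and 1898 in MOLM-14 with DMSO, against 1108, 970 and 967 in MV4-11 with SAHA and 624, 592 and 686 in MV4-11 with DMSO. It fell in MOLM-14 and rose in MV4-11 with no overlap in either line (response difference −1.84, SE 0.21, adjusted p = 0.000111). The phosphatase gene CDC25A and the factors E2F2 and E2F7 fell in MOLM-14 and did not pass in MV4-11, with response differences of −1.44, −1.40 and −0.90, of which that of CDC25A lost the call in 12 of 20 alternatives. Cyclin E1 (CCNE1) differed by −1.16, and E2F8 rose in MV4-11 (1.03) and did not pass in MOLM-14.

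Among repair genes of the Fanconi pathway and of homologous recombination, 12 of 19 fell and 1 rose in MOLM-14, 1 fell and 1 rose in MV4-11, and all 19 response differences were negative (median −0.45), but 3 passed. These were the nuclease EXO1 (−1.40, adjusted p = 7.28e-05), the helicase BRIP1 (−1.07) and the recombination factor RAD54L (−1.01). EXO1 averaged 442 ± 78.5 in MOLM-14 with SAHA and 1178 ± 98.6 in MOLM-14 with DMSO, against 779.9 ± 23.2 in MV4-11 with SAHA and 794 ± 82.6 in MV4-11 with DMSO (SD, n = 3). Genes of mitosis had no such split. They fell in both lines, 20 of 32 in MOLM-14 (median −0.43) and 24 of 32 in MV4-11 (median −0.45), and 4 response differences passed. MAD2L1 of the spindle checkpoint, the motor KIF11 and cyclin A2 (CCNA2) had negative response differences of −0.67, −0.51 and −0.36, and HMMR, a spindle protein, a positive one of 1.03.

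Genes of the interferon response were mixed, and IFIT3 and IFIT1 had the largest positive response differences among the 1666 calls. IFIT proteins bind foreign RNA and are made after interferon or virus. IFIT3 measured 509, 584 and 535 in MOLM-14 with SAHA and 119, 137 and 242 in MOLM-14 with DMSO, against 270, 306 and 284 in MV4-11 with SAHA and 898, 1202 and 668 in MV4-11 with DMSO. It rose in MOLM-14 (1.78) and fell in MV4-11 (−1.65), with all 3 SAHA arrays on the other side of all 3 DMSO arrays in both lines. The response difference was 3.42 (SE 0.32, adjusted p = 2.07e-05), or 10.7-fold as a ratio of the fold changes, and both IFIT3 probe sets passed.

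IFIT1 had the same form, with 315, 390.1 and 382 in MOLM-14 with SAHA and 129, 96.9 and 199 in MOLM-14 with DMSO, against 272, 181 and 195 in MV4-11 with SAHA and 718, 915 and 589.5 in MV4-11 with DMSO (response difference 3.19, SE 0.46, adjusted p = 0.000864). IFIT2 differed by 2.70 (SE 0.35, adjusted p = 0.000399), with no overlap in either line. Of 32 interferon-induced genes, 5 passed (15.6%), all positive, and ISG15 (0.98) and XAF1 (0.61) were the other 2. The median of the list was 0.34. IFI6 and BST2 rose in both lines, by 2.23 and 0.98 in MOLM-14 and by 1.86 and 0.85 in MV4-11, and their response differences of 0.37 and 0.12 did not pass. IRF7, a factor that drives interferon genes, fell in both, by 1.09 in MOLM-14 and by 1.39 in MV4-11.

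The interferon response element was searched on both strands as GAAA, then NN, then GAAA. It was present in 14 of 24 promoters of the list with a window, in 3 of 4 called and 11 of 20 not called, against 3.65% of all promoters. The elements of IFIT1 and IFIT3, the called genes with the largest values, read alike, and the matching letters are in capitals in the reverse complement.
IFIT1: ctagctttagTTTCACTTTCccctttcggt
IFIT3: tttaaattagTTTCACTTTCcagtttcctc
They lie at chr10:89392497-89392526 and chr10:89327865-89327894, both on the + strand.

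The most negative response difference of all belonged to a monocyte gene. S100A8 and S100A9 form calprotectin, the abundant calcium-binding protein of monocytes and neutrophils. S100A8 measured 2004, 1192 and 1939 in MOLM-14 with SAHA and 4413, 4443 and 3112 in MOLM-14 with DMSO, against 1154, 1389 and 1302 in MV4-11 with SAHA and 229, 239 and 315 in MV4-11 with DMSO. It fell in MOLM-14 (−1.24) and rose in MV4-11 (2.31) with no overlap, a response difference of −3.55 (SE 0.32, adjusted p = 1.29e-05). Of its 2 probe sets only this 1 passed. With SAHA the levels of the lines lay closer to each other than with DMSO.

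S100A9 measured 344, 288 and 307 in MOLM-14 with SAHA and 910, 888 and 666 in MOLM-14 with DMSO, against 270.2, 295 and 234 in MV4-11 with SAHA and 120.3, 99.2 and 90.1 in MV4-11 with DMSO (response difference −2.75, SE 0.28, adjusted p = 3.73e-05). Both genes thus moved in opposite directions in the lines. Of 33 monocyte and macrophage genes, 9 had a negative response difference that passed and 1 a positive one (CEBPB, also in the ATF4 list). With only the 12 arrays in the fit, 5 negative ones passed. The list as a whole was mixed, with 15 values positive and 18 negative and a median of −0.13. SAHA raised 15 and lowered 1 of the 33 in MV4-11, and raised 6 and lowered 4 in MOLM-14. MNDA, a nuclear protein of myeloid cells, rose in both lines, by 1.96 in MOLM-14 and by 3.27 in MV4-11 (response difference −1.30, adjusted p = 0.00186). CSF1R, the receptor of macrophage growth factor, and the chemokine receptor CCR2 rose in MV4-11 (0.82 and 1.08) and did not pass in MOLM-14 (0.08 and 0.36). IRF8, a factor of monocyte fate, fell in MOLM-14 (−0.78) and did not pass in MV4-11 (−0.14).

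Of 10 granule proteins, 4 had a negative response difference that passed and 1 a positive one. MPO, the peroxidase of primary granules, measured 594, 289 and 246 in MOLM-14 with SAHA and 2431, 2607 and 1971 in MOLM-14 with DMSO, against 1033, 1102 and 1019 in MV4-11 with SAHA and 1279, 1409 and 1522 in MV4-11 with DMSO. The fall passed in MOLM-14 (−2.74, adjusted p = 1.17e-05) and not in MV4-11 (−0.41, adjusted p = 0.492), where the groups also did not overlap, and the response difference was −2.32 (SE 0.41, adjusted p = 0.00429).

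PRTN3, a granule protease, measured 5271, 3755 and 3856 in MOLM-14 with SAHA and 8414, 7972 and 5496 in MOLM-14 with DMSO, against 11396, 10929 and 10717 in MV4-11 with SAHA and 5655, 5363 and 5170.2 in MV4-11 with DMSO. It fell in MOLM-14 and rose in MV4-11 without overlap (response difference −1.79, SE 0.21, adjusted p = 0.000148). Its neighbor in function ELANE, neutrophil elastase, differed by −0.68, and RNASE2 rose in both lines, less in MOLM-14 (0.44) than in MV4-11 (1.10).

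**Figure D3:**
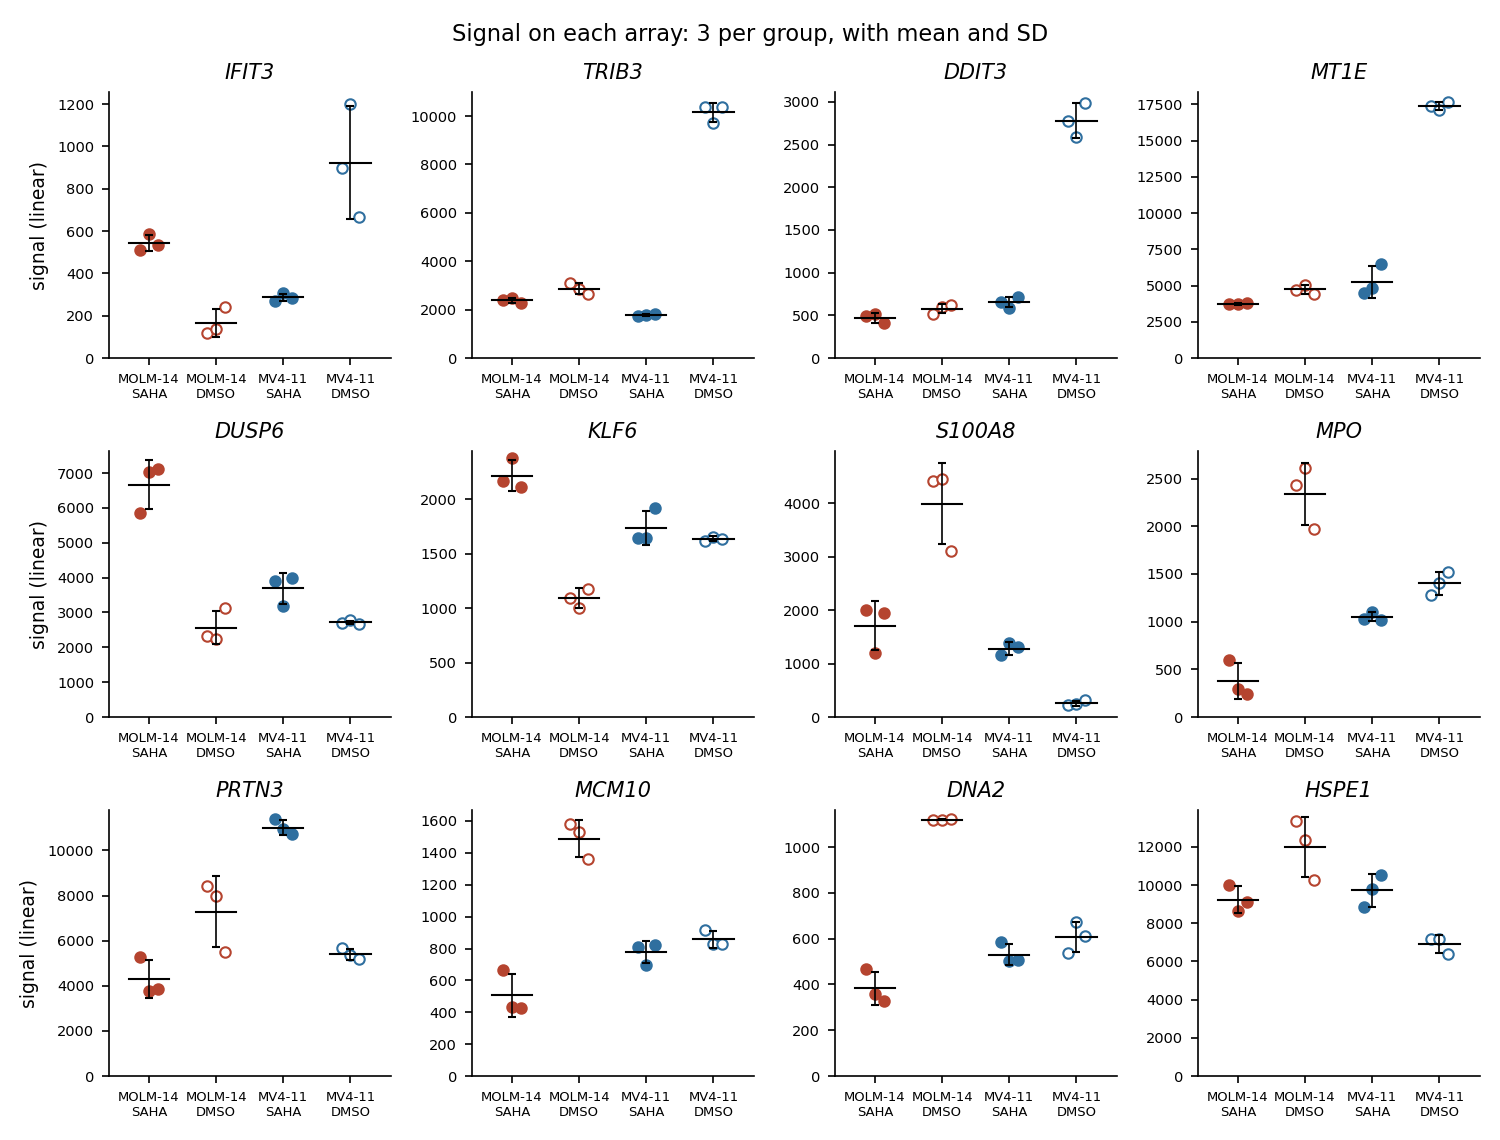
Linear signal (vertical axes, from 0) on each of the 12 arrays for 12 genes, with SAHA as filled and DMSO as open points, MOLM-14 in red and MV4-11 in blue, and bars for the mean and SD of 3 arrays. For TRIB3, DDIT3 and MT1E the MV4-11 DMSO arrays stand alone at the top, for MCM10 and DNA2 the MOLM-14 DMSO arrays do, and IFIT3, S100A8, PRTN3 and HSPE1 moved in opposite directions.

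In 2 lists of growth factor signaling, 3 of 20 genes downstream of ERK (15%) and 2 of 15 STAT5 targets (13.3%) passed, all positive. The background was 8.45% of the brighter genes, with 3.98% higher. DUSP6, a phosphatase that ERK induces and that acts back on it, measured 5851, 7037 and 7102 in MOLM-14 with SAHA and 2330.1, 2252 and 3118 in MOLM-14 with DMSO, against 3899, 3189.9 and 3987 in MV4-11 with SAHA and 2707, 2773 and 2674 in MV4-11 with DMSO. It rose in both lines, and more in MOLM-14 (response difference 0.95, SE 0.18, adjusted p = 0.00681). ETV5 and IER3, further targets of ERK, differed by 0.96 and 0.92, and 3 of 20 genes of that list passed. Of 15 STAT5 targets 2 passed, the kinase gene PIM1 (0.86, adjusted p = 0.0183) and SOCS1, an inhibitor of cytokine signaling (0.76, adjusted p = 0.0313). PIM1 averaged 4410.5 ± 398 in MOLM-14 with SAHA and 1880 ± 389 in MOLM-14 with DMSO, against 3690.0 ± 405 in MV4-11 with SAHA and 2811 ± 94.5 in MV4-11 with DMSO (SD, n = 3). The call was lost for both in the fit of the 12 arrays alone and without MOLM-14 SAHA replicate 2.

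Among genes that HDAC inhibitors often raise, 4 of 16 passed, all positive (median 0.31). KLF6, a zinc finger factor with 1 of 5 probe sets called, rose in MOLM-14 and did not pass in MV4-11. It measured 2167, 2375 and 2111 in MOLM-14 with SAHA and 1098, 1002 and 1181 in MOLM-14 with DMSO, against 1645, 1648 and 1921 in MV4-11 with SAHA and 1614, 1657 and 1639 in MV4-11 with DMSO (response difference 0.94, SE 0.12, adjusted p = 0.000301). TXNIP, an inhibitor of thioredoxin, also had a rise that passed in MOLM-14 alone (0.45). The growth arrest genes GADD45A and GADD45B fell in MV4-11 (−0.53 and −0.48) at MOLM-14 changes that did not pass.

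The BCL2 family, which decides on apoptosis at mitochondria, had 3 of 15 genes past the test. BCL2A1, a survival member, averaged 1047 ± 161 in MOLM-14 with SAHA and 326 ± 81.4 in MOLM-14 with DMSO, against 672 ± 121 in MV4-11 with SAHA and 460.4 ± 46.7 in MV4-11 with DMSO (SD, n = 3). It rose in both lines and more in MOLM-14 (response difference 1.17, adjusted p = 0.0075), and it lost the call in the fit of the 12 arrays alone. The death genes went different ways. BAX rose in MV4-11 (0.78) and was at 0.02 in MOLM-14 (response difference −0.76, adjusted p = 0.00625). PMAIP1, which encodes NOXA, fell less in MOLM-14 (−0.64) than in MV4-11 (−1.35). The p53 targets AEN (−2.10) and CCNG1 (0.33) passed, out of 19, and CCNG1 lost the call in 15 alternatives.

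Heat shock chaperones, which fold proteins under stress, had 4 of 10 response differences past the test that were negative and 1 that was positive. HSPE1, a mitochondrial chaperonin, measured 9983, 8621 and 9128 in MOLM-14 with SAHA and 13365, 12348 and 10275 in MOLM-14 with DMSO, against 8845, 9788 and 10534 in MV4-11 with SAHA and 7166, 7195 and 6366 in MV4-11 with DMSO. The groups did not overlap in either line, and the response difference was −0.86 (SE 0.14, adjusted p = 0.00246). DNAJA1, HSP90AA1 and HSPH1 differed by −0.76, −0.65 and −0.54, and the small heat shock gene HSPB1 by 0.56. In the unfolded protein response of the endoplasmic reticulum, 3 of 17 passed, all positive. They were the chaperone HSPA5 (0.47), DNAJC3 (0.58) and SEL1L (0.47), while 10 of the 17 fell in MV4-11. Of 25 genes of ribosome biogenesis, 3 passed, NOLC1 (−0.47), HEATR1 (−0.44) and POLR1B (−0.34), and 22 of the 25 values were negative. HSPB1, SEL1L, NOLC1 and HEATR1 lost the call in 10 or more of 20 alternatives.

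The remaining lists had between 0 and 4 genes past the test each. In glycolysis and hypoxia genes 2 of 25 passed, VEGFA (0.68), which rose in MOLM-14 and fell in MV4-11, and the glucose carrier SLC2A3 (0.80). In cholesterol synthesis 2 of 18 passed, STARD4 (0.51) and DHCR7 (0.42), and in lysosomal genes 2 of 24 passed with a positive and 2 with a negative value. SLC2A3, STARD4, DHCR7 and all 4 lysosomal genes lost the call in 10 or more of the 20 alternatives. In MHC class II 0 of 12 passed in limma, and 0 had an unadjusted p under 0.05. Of 9 genes of the HOXA cluster and targets of KMT2A fusions, only FLT3 passed.

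**Figure D4:**
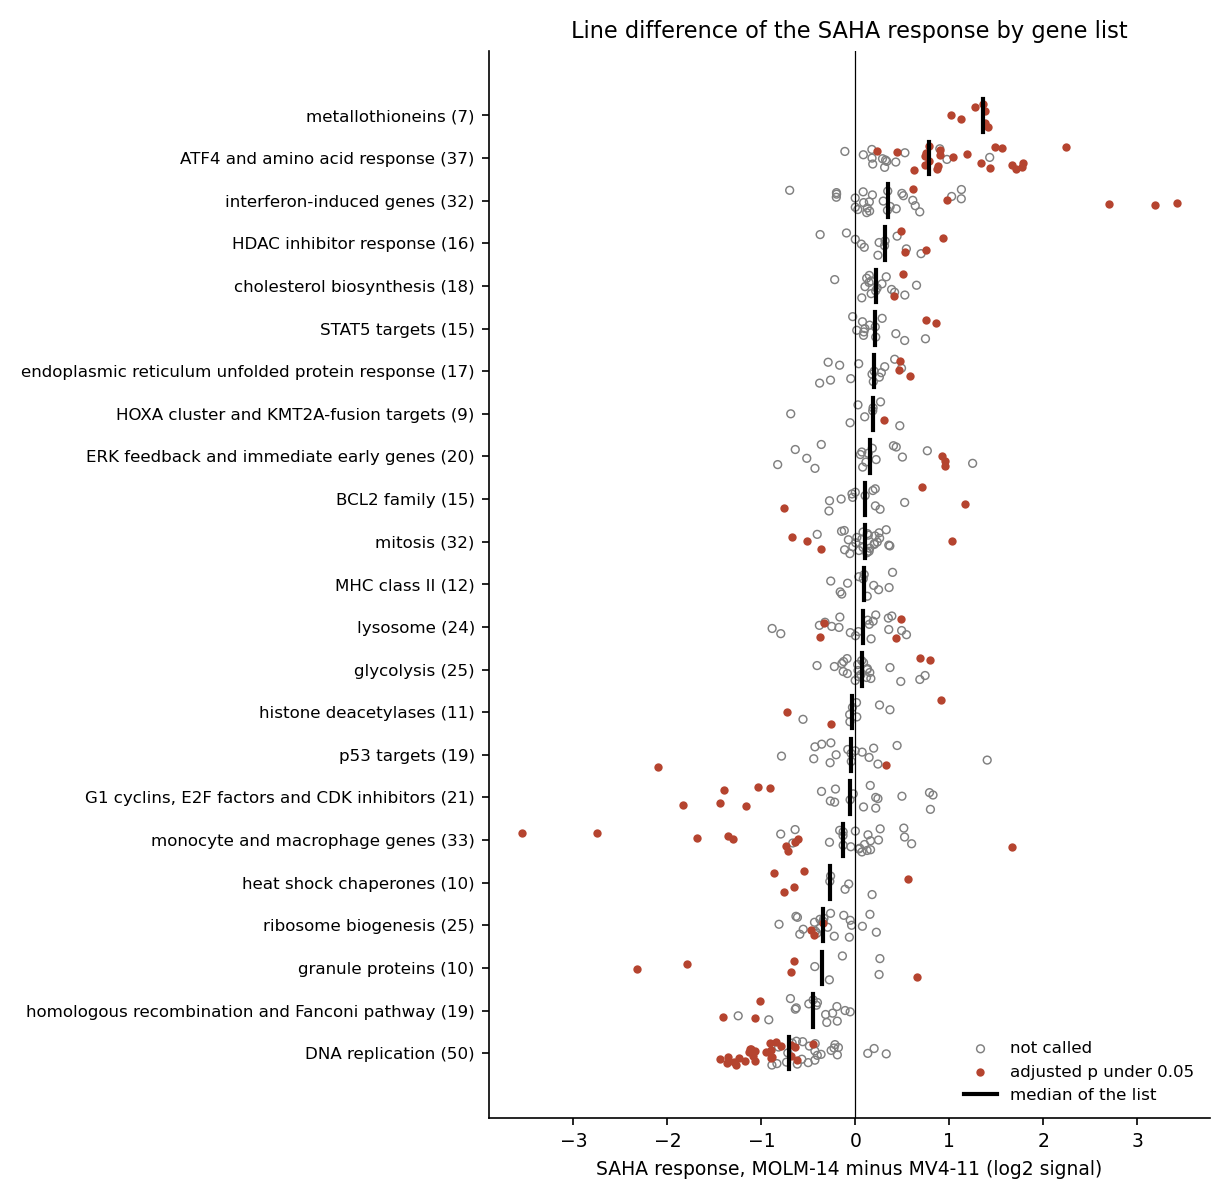
Response difference of each measured gene (horizontal axis, log2 signal, MOLM-14 minus MV4-11) by gene list, with the number of genes in brackets, genes at an adjusted p under 0.05 in red and the list median as a bar. The metallothionein and ATF4 lists lie to the right (medians 1.35 and 0.79), the DNA replication list lies to the left (median −0.70), and most others lie around 0.

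FLT3, the target of ABT-869, measured 11856, 12592 and 11989.5 in MOLM-14 with SAHA and 10511, 11199 and 10740 in MOLM-14 with DMSO, against 13918, 13442 and 13642 in MV4-11 with SAHA and 15166, 14953 and 14875 in MV4-11 with DMSO. The response difference was 0.30 (SE 0.07, adjusted p = 0.0316), and the call was lost in 14 of the 20 alternatives run. Of 11 histone deacetylase genes, HDAC9 had a positive response difference (0.91, adjusted p = 0.00529), with a mean signal of 755 ± 78.1 and 890.4 ± 123 in MOLM-14 with SAHA and with DMSO and of 563 ± 40.1 and 1245 ± 62.1 in MV4-11 with SAHA and with DMSO. HDAC4 (−0.73) and HDAC1 (−0.26) had negative ones, and both lost the call in 10 or more alternatives. PTP4A3 encodes PRL-3, the phosphatase at the center of the study. The gene averaged 1667 ± 37.9 in MOLM-14 with SAHA and 1713 ± 248 in MOLM-14 with DMSO, against 1925 ± 148 in MV4-11 with SAHA and 2787 ± 236 in MV4-11 with DMSO (SD, n = 3). It fell in MV4-11 (−0.53, adjusted p = 0.00703) and was at −0.03 in MOLM-14, and the response difference of 0.50 (SE 0.17) did not pass (adjusted p = 0.138). These values are from the brightest of 3 PTP4A3 probe sets, of which 0 passed, and the paper's gene table lists another. The paper reports less PRL-3 protein in MOLM-14 with SAHA at a lower dose, which RNA signals do not measure.

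Some of the largest values belong to no list. ACP3, an acid phosphatase, measured 1414, 1465 and 1482 in MOLM-14 with SAHA and 2170.4, 2009.6 and 2619 in MOLM-14 with DMSO, against 1284, 1049.8 and 1027 in MV4-11 with SAHA and 354, 472 and 410.2 in MV4-11 with DMSO (response difference −2.08, SE 0.18, adjusted p = 9.94e-06). PYGB, the brain form of glycogen phosphorylase, averaged 1026 ± 82.3 in MOLM-14 with SAHA and 575 ± 155 in MOLM-14 with DMSO, against 531 ± 101 in MV4-11 with SAHA and 1156 ± 115 in MV4-11 with DMSO, and differed by 2.003 (adjusted p = 0.000472). The cytokine receptor gene IL31RA, the membrane protein gene TM6SF1 and the chemokine CCL20 had rises that passed in MOLM-14 alone (1.95, 2.14 and 3.05). Their changes in MV4-11 (−0.46, −0.10 and 0.51) did not pass. The CCL20 signal in MOLM-14 with DMSO was 28.8, 24.3 and 33.8, at the floor. Its response difference of 2.55 became 1.57 with a floor of 64 (adjusted p = 0.0626 from limma), and the call was lost in 10 of 20 alternatives. RPL38, a ribosomal protein with copies elsewhere in the genome that its probes may also read, differed by 2.64 (adjusted p = 0.00311). ALDH4A1, an enzyme of proline breakdown, rose in MV4-11 (2.33) at a response difference of −2.97, but its signal in MV4-11 with DMSO was 12.3, 73.6 and 58.3, near the floor. CFAP73 measured 94.5, 195 and 143 in MOLM-14 with SAHA and 15.2, 24.7 and 104 in MOLM-14 with DMSO, so these groups overlapped and 2 of the arrays were under the floor. In MV4-11 with SAHA it measured 54.4, 17.9 and 27.9, also in part under the floor. CFAP73, ITPKA, EVPL, P3H2, TMEM201, PPP1R37, ESCO2 and ABCA1 were also among the 24 largest, between −2.30 and 3.15, and all except EVPL lost the call in 4 or more alternatives.

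The same question was asked on arrays that the response difference does not read. On the 12 arrays with ABT-869 and with the combination, the change with SAHA added to ABT-869 was compared between the lines, and 3426 probe sets passed (6.27%), or 16.9% of the brighter genes (7.51% higher, 9.39% lower). The comparisons share no array, though they share the estimate of the spread. Of the 1666 probe sets, 1445 had the same sign there (86.7%, against 56.6% of all probe sets), and 766 also passed with that sign, or 46.0% of the 1666 and 22.4% of the 3426. With the opposite sign 18 passed. Over the 27306 probe sets above the median signal, the values of the comparisons correlated at r = 0.25, across probe sets that share the 4 groups of arrays on each side and are not independent.

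DNA replication genes differed between the lines with and without ABT-869. With SAHA added to ABT-869, 28 of 50 had a negative response difference past the test and 1 a positive one (median −0.67), and MCM10 differed by −1.97, MCM3 by −1.22 and CCNE2 by −1.77. PRTN3 (−1.76), KLF6 (0.91), DUSP6 (1.24) and PIM1 (1.35) passed there too. The ATF4 list did not keep its size, with 7 of 37 past the test positive and 3 negative and a median of 0.19, and TRIB3 was at 0.49 (adjusted p = 0.038). Of the metallothioneins 2 of 7 passed, both positive (median 0.49). S100A8 was at −0.52 (adjusted p = 0.453) and S100A9 at −0.42 (adjusted p = 0.519). Of the 33 monocyte and macrophage genes, 4 passed there with a positive value and 1 with a negative one (median 0.15). The mitosis list, with 4 of 32 past the test in the response difference, had 25 of 32 past it there, all positive (median 0.82), and ribosome biogenesis had 17 of 25, all negative (median −0.64).

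The response difference with and without ABT-869 was also set side by side as a further contrast, without minus with ABT-869, chosen after the data had been seen. It passed at 255 probe sets (0.467%). Many of the named genes were chosen for a large response difference, which enters this contrast, so their values in it are a description. The contrast was −3.02 for S100A8, −2.77 for ACP3, −2.33 for S100A9 and 2.40 for IL31RA. It was 1.76 for TRIB3, 1.73 for CEBPB and 2.18 for IFIT3. ACP3 and KIF11 had response differences of opposite sign on the separate arrays, both past the test, with ACP3 at −2.08 without and 0.69 with ABT-869. The contrast was 0.53 for MCM10, −0.03 for PRTN3 and 0.03 for KLF6.

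**Figure D5:**
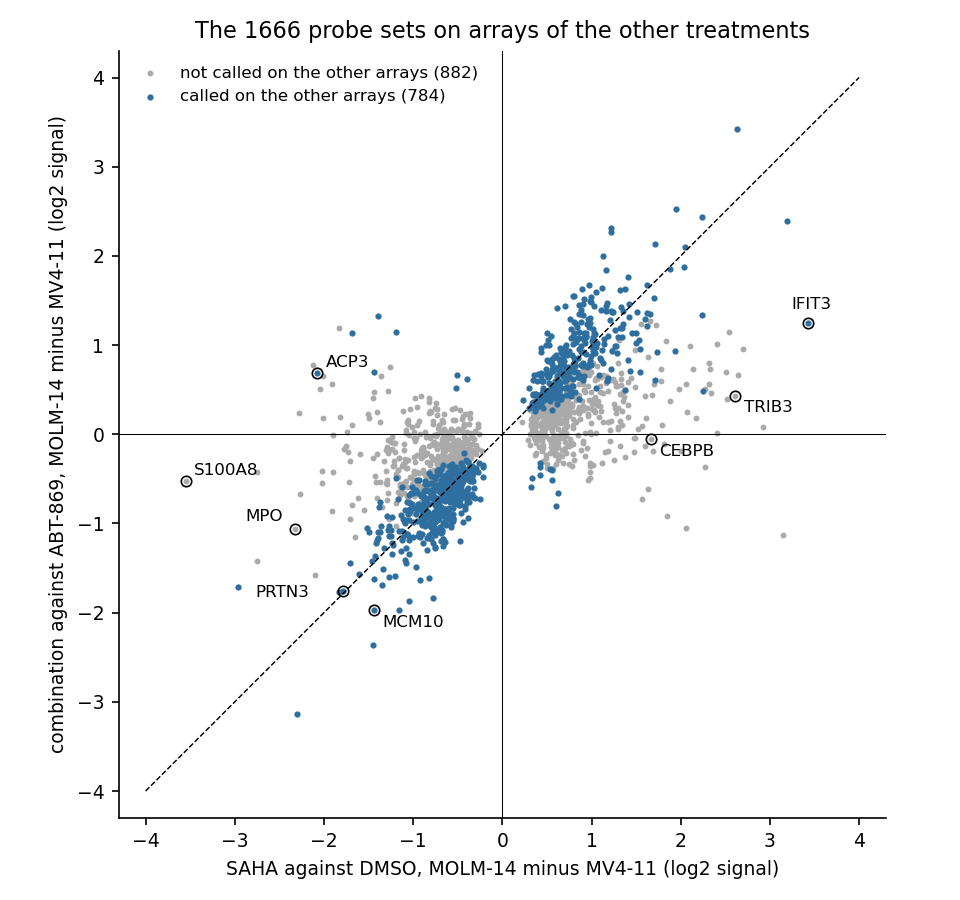
Response difference on the arrays with ABT-869 and the combination (vertical axis, log2 signal, MOLM-14 minus MV4-11) against that on the SAHA and DMSO arrays (horizontal axis, log2 signal) for the 1666 probe sets, in blue where it passed there too (784) and in gray where it did not (882). PRTN3 and MCM10 lie near the dashed line of equal values, S100A8, TRIB3 and CEBPB lie close to the horizontal axis, and ACP3 has the opposite sign.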

How the data were processed

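RNA of 24 samples was hybridized to Affymetrix U133 Plus 2.0 arrays, 1 per sample. The intensity of each probe set was deposited by the authors as 1 linear signal per array, brought to the same trimmed mean, with software not given in the sources used here. Signals under 32 (31.2% of values on the 12 arrays used) were raised to 32, which understates changes of dim genes, and log2 was taken with no further normalization. Groups followed the sample titles. A model with 8 group means was fitted over all 24 arrays with limma (version 3.58.1, R 4.3.3), with Benjamini-Hochberg adjustment over 54613 probe sets. The paper states no test, only a 2-fold rule.

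By the platform annotation 41091 probe sets name 1 gene (41037 found by gene identifier, 54 not), 1801 several and 11721 none here. In a list, the brightest probe set naming only that gene stood for it. For many of the genes named by the rules below, other probe sets did not pass in the response difference. Only 1 of 5 passed for KLF6, HDAC9 and HEATR1, and 1 of 4 for DNAJC3, SEL1L and ABCA1. It was 1 of 3 for ACP3, IL31RA, CDC25A, MAD2L1, HDAC4, NOLC1 and PPP1R37. For S100A8, IFIT2, CCNE2, PYGB, BAX, PMAIP1, BRIP1, ALDH4A1, CFAP73 and P3H2, 1 of 2 passed each. For ETV5 it was 2 of 5, for SOCS1, ESCO2 and VEGFA 2 of 4, and for RPL38, MCM10 and DUSP6 2 of 3. No gene had probe sets called in both directions. The genes named are the 12 most positive and 12 most negative differences among called, brighter probe sets with 1 gene, the 8 with the largest opposite changes, the 2 largest called members per list and direction, FLT3, PTP4A3 and the histone deacetylases. Others were chosen after their values were seen. Members, lists and motifs were chosen with earlier results of these data known.

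The labels and paper call the triplicates biological without saying how cultures were separated, so p-values measure the spread between these arrays. With 3 against 3 arrays an exact permutation test cannot go below 0.1, so none was used. The alternatives were quantile normalization, centring on the medians of brighter probe sets, floors of 1 and 64, only brighter probe sets and limma-trend. The others were a replicate block, only the 12 arrays compared, every probe set of a list gene and leaving out each array. The fit was also tested on simulated data, built from the real group means and spread with known differences in brighter probe sets. It recovered 35% of 100 differences of size 1 on the log2 scale and 73% of 100 of size 2. False calls numbered 6 among 114. A response difference that did not pass therefore does not show that the lines responded alike.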

Additional observations from a re-analysis of the deposited data

Results flagged for a closer look

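SAHA responses differed between the lines, by the test of that difference, at 1666 probe sets. The 8 genes with the largest opposite changes, ranked by the smaller change of the lines, are given here with their response differences. IFIT3 (3.42 on the log2 scale), IFIT1 (3.19), CFAP73 (3.15), IFIT2 (2.70), RPL38 (2.64) and PYGB (2.003) rose in MOLM-14 and fell in MV4-11. S100A8 (−3.55) and S100A9 (−2.75) fell in MOLM-14 and rose in MV4-11. Further named genes had opposite changes too, among them ACP3, CCNE2, PRTN3, HSPE1 and VEGFA. For CFAP73, 2 of 3 MOLM-14 DMSO arrays were under the floor of 32, as were values of 17.9 and 27.9 in MV4-11 with SAHA. With a floor of 64 its response difference was 1.74 and did not pass (adjusted p = 0.0995 from limma).

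For 9 named genes the response difference without minus with ABT-869 also passed the test. These genes were chosen in part for a large response difference without ABT-869, which enters this contrast, so the values are a description and support nothing. The value was 2.18 for IFIT3, 2.40 for IL31RA, 2.19 for PYGB, 1.73 for CEBPB, and 2.18 and 1.76 for the TRIB3 probe sets. It was −3.02 for S100A8, −2.33 for S100A9, −2.77 for ACP3 and −1.18 for KIF11. Chance outliers were not sought, since each group held 3 arrays.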

How the results depend on the processing

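The 1666 calls became 671 with a floor of 1, while the SAHA calls in MV4-11 became 3404, the opposite changes 47 and the calls with SAHA added to ABT-869 1984. A fit of only the 12 arrays compared gave 2058 for the last of these, against 3426. Leaving out each of the 12 SAHA and DMSO arrays in turn gave 1002 to 1695 response differences, 4170 to 5790 calls in MOLM-14, 3879 to 5262 in MV4-11, and 99 to 154 opposite changes, lowest for the response difference without MOLM-14 SAHA replicate 2. The ABT-869 and combination arrays were not left out in turn. Where a group kept 2 arrays, they are assumed to vary like the other groups. The cause of these shifts was not tested, and each fit with an array left out also held fewer samples. Other settings kept each of these totals within 1.5 times. With a replicate block, 1465 probe sets passed, of which 1317 were among the 1666, and opposite changes numbered 150, so the block moved no count by over 1.5 times, and 13 of 68 named probe sets lost the call. The labels do not say whether same-numbered arrays of different groups were handled together. Their deviations from the group means correlated at −0.147 to 0.156, over 0.1 in 3 of 18 pairs. Not every array correlated best with its own number. With so few arrays per group these correlations cannot settle whether the numbers mark a shared batch. Positive calls made up 47.8%, and 57.5% with centred arrays, where negative calls numbered 542 against 870. Of 68 named probe sets that passed, 34 passed in all 20 settings and 0 changed sign, with the most calls lost with a floor of 1 (29 of 68). The share of signals under 32 was 34.9% to 36.4% on the MOLM-14 SAHA arrays, so changes of dim genes there were measured as 0 or as less than they may be.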

Other observations

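Genes outside the lists, chosen after their values were seen, had similar forms. On the side of S phase, UNG, which removes uracil from DNA, fell in MOLM-14 (−1.60) and was at 0.11 in MV4-11 (response difference −1.71, adjusted p = 3.53e-05 from limma). HELLS, a chromatin remodeler, had 4 probe sets past the test, between −1.66 and −1.40. The chromatin assembly subunit CHAF1A had 3, between −1.27 and −0.74, and DTL, an adaptor for protein destruction in S phase, had 2, at −1.28 and −0.94. UHRF1, which maintains DNA methylation, fell in both lines and more in MOLM-14 (−1.30) than in MV4-11 (−0.39).

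On the stress side, both CARS1 probe sets, for cysteine tRNA synthetase, fell in MV4-11 (−0.91 and −0.93) at response differences of 0.90 and 1.04. PPP1R15A, which restores translation after stress, differed by 1.01 and 1.497 on its 2 called probe sets and GTPBP2, a GTPase that acts on stalled ribosomes, by 1.09. SLC30A1, an exporter of zinc, rose in MOLM-14 (0.66) and was at −0.36 in MV4-11 (adjusted p = 0.0776), a response difference of 1.02 (adjusted p = 0.00288).

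The chemokine CCL5 rose in MOLM-14 on 3 probe sets (1.13 to 1.25) and did not pass in MV4-11 (−0.29 to −0.19), with response differences of 1.33, 1.35 and 1.55. CXCL11, another chemokine, fell in MV4-11 (−0.92 and −0.91) at response differences of 1.16 and 1.41. S100P, a relative of S100A8, moved the other way from it, rising in MOLM-14 (0.74) and falling in MV4-11 (−1.32), with a response difference of 2.06 (adjusted p = 0.00024).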
